A study of Mus musculus with 8 samples.

Results

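This account covers 7 genes of the neurotrophin system among the 25006 genes counted in mouse 4T1 tumors: the receptors Ngfr, Ntrk2 and Ntrk3, the sorting receptor Sort1, and the ligands Bdnf, Ntf3 and Ntf5. They were matched by symbol to the Ensembl identifiers of the deposited counts, and all 7 were found. Ngfr was the lead. It was picked, and the other 6 were added, with their levels over the 4 groups described here in view, so every difference among the groups is given for these 7 genes as a description, with no p-value. 4T1 is a mammary carcinoma line of Balb/c origin that serves to model triple-negative disease. The study asked how tumor CD95, the death receptor encoded by Fas, relates to gene expression in hosts with and without an adaptive immune system. Cells were injected into the fat pad, and tumors were taken within 20 days. There were 4 groups of 2 RNA-seq libraries. NSG wild type held a tumor of the parental line and a tumor of a line stably expressing vCas9, both grown in immunodeficient NSG mice, which have no mature lymphocytes or NK cells. NSG knockout held tumors of the CRISPR/Cas9 CD95 knockout clones 54 and 69 in the same host. The other 2 groups held the same 4 lines, again 2 wild-type and 2 knockout, in immunocompetent Balb/c mice. The age of the mice is not given in the sources used here, nor whether a library held 1 tumor or a pool. The 2 libraries of a group were therefore 2 different lines. The knockout lines were clones and the wild-type lines were not described as clones, so clonal differences and CD95 status cannot be told apart. Each tumor held host cells as well as 4T1 cells, and in such bulk RNA fewer cells of a type and less RNA per cell cannot be told apart.

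Library totals were 8680070 to 19655945 counts, and the 2 NSG knockout libraries were the smallest. Levels are given as CPM, the usual depth-scaled count unit, taken from library totals after TMM scaling, and 3 counts corresponded to 0.159 to 0.321 CPM. Fas was read in all 8 libraries, at 22.6 to 33.9 CPM in NSG wild type, 12.9 to 29.5 in NSG knockout, 46.9 to 51.6 in Balb/c wild type and 27.1 to 33.7 in Balb/c knockout tumors. Its knockout log2 fold change was -0.42 (SE 0.37) in NSG and -0.70 (SE 0.36) in Balb/c, with edgeR adjusted p-values of 0.628 and 0.225, so the knockout status rests on the labels. A chi-square check for a library deposited more than once found no such pair within a group.

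Neurotrophins are secreted growth factors that keep neurons alive and shape their connections. They are made as longer precursors, which are cut inside the cell by furin and related convertases or outside it by proteases such as plasmin. Mature ligands signal through the Trk tyrosine kinases: BDNF and NT-4 through TrkB (Ntrk2), and NT-3 mainly through TrkC (Ntrk3). The p75 receptor, encoded by Ngfr, is a member of the tumor necrosis factor receptor superfamily with an intracellular death domain, as CD95 is. It binds all mature neurotrophins and, together with sortilin (Sort1), their precursors. Outside neurons, p75 is found on Schwann cells, pericytes, some fibroblasts, follicular dendritic cells and the basal cells of the mammary gland.

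Among the 7, Ngfr, Ntf3 and Ntrk2, had both NSG knockout libraries above the other 6, and the bases before their transcription starts are shown so that these genes can be compared at the level of sequence. The sequences come from RefSeq on build GRCm38.p6, where 4 of the 7 genes matched an entry, with 11 start sites among them; Ntf5, Ntrk3 and Sort1 were not matched. A window is the 250 bases before a RefSeq start, on the gene's own strand. GENCODE places the first exon further upstream for Ngfr and for the first Ntf3 start, so that the last 37 and 166 bases of these windows lie in that exon; they are counted in the windows and not printed. Each line is written 5′ to 3′, and capitals mark each GC box, searched as GGGCGG on both strands. The bases printed for Ngfr lie at chr11:95587736-95587948 and those for Ntf3 at chr6:126166911-126166994 and chr6:126164961-126165210, all on the minus strand, and those for Ntrk2 at chr13:58806319-58806568 on the plus strand.
Ngfr: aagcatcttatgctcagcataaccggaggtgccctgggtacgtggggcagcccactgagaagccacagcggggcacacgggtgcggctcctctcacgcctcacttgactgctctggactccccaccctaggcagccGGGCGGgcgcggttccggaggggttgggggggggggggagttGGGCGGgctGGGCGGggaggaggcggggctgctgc
Ntf3, first start: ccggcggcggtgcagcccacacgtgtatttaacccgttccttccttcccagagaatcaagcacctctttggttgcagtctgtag
Ntf3, second start: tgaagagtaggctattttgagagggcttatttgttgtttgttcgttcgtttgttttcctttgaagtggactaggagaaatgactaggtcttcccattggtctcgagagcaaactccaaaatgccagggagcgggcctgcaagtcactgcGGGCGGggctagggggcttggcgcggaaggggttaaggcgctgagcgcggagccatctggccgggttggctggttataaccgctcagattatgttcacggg
Ntrk2: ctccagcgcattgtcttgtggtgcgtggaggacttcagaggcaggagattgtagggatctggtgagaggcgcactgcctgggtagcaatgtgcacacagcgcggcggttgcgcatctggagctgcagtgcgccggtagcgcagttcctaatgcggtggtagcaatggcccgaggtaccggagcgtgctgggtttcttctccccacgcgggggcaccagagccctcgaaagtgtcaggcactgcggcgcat
The Ngfr window held 4 GC boxes, 1 of them within the GENCODE exon, and 70.4% G or C. Each of the Ntf3 windows held 1, which for the first start lay within the exon, with 62% and 54% G or C, and the Ntrk2 window held 0, with 62.8%. Of all 32851 promoter windows of the same length, 32.7% held a GC box and 4.09% held 4 or more, and the median G or C content was 52.4%. The AP-1 motif TGANTCA, found in 6.75% of all windows, and the cAMP response element TGACGTCA, found in 1.55%, had 0 matches in these 4 windows. The letters ACGTG, the core of the hypoxia response element and present in 16.6% of all windows, had 1 match in the Ngfr window and 2 in the first Ntf3 window, and had 0 matches in the others; ACGTG and its reverse complement can overlap. These matches describe letters only.

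Ngfr (ENSMUSG00000000120; chromosome 11, 95568818 to 95587735 on the minus strand of GRCm38, protein-coding, 6 exons) was low in 6 libraries and high in the NSG knockout tumors. In NSG hosts it had 13 counts (0.900 CPM) in the parental tumor, 26 counts (2.15 CPM) in the vCas9 tumor, 178 counts (19.0 CPM) in the clone 54 tumor and 116 counts (11.5 CPM) in the clone 69 tumor. In Balb/c hosts it had 7 counts (0.595 CPM) in the parental tumor, 17 counts (1.18 CPM) in the vCas9 tumor, 12 counts (0.635 CPM) in the clone 54 tumor and 7 counts (0.511 CPM) in the clone 69 tumor. Both clones were thus high in NSG mice, and the same 2 clones were low in Balb/c mice. The lower NSG knockout library stood 5.36-fold above the highest of the other 6. The group means were 15.3 ± 5.31 CPM in NSG knockout, 1.53 ± 0.886 in NSG wild type, 0.886 ± 0.413 in Balb/c wild type and 0.573 ± 0.0878 in Balb/c knockout (SD, n = 2 each). The fitted knockout log2 fold change was 3.33 (SE 0.52) in NSG and -0.63 (SE 0.60) in Balb/c, a difference between hosts of -3.96 (SE 0.79), which ran from -4.70 (without NSG vCas9) to -3.45 (without NSG parental). The pooled NSG counts of 294 against 39 gave a ratio of 10.3, with a 95% exact binomial interval of 7.36 to 14.8 that covers counting error only. Between hosts, the Balb/c minus NSG log2 fold change was -4.70 (SE 0.57) in knockout and -0.74 (SE 0.56) in wild-type tumors, and the wild-type libraries overlapped. Over both hosts, fitted with an additive host term, the knockout log2 fold change was 1.68 (SE 0.84), which combines the high NSG and the low Balb/c values. It is not the mean of the 2 values by host. Leaving out single libraries moved it between 0.88 (without NSG parental) and 2.38 (without Balb/c vCas9). The NSG knockout value moved between 2.82 (without NSG parental) and 4.07 (without NSG vCas9), and the host value in wild-type tumors between -1.26 (without Balb/c vCas9) and -0.002 (without NSG vCas9).

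**Figure D1:**
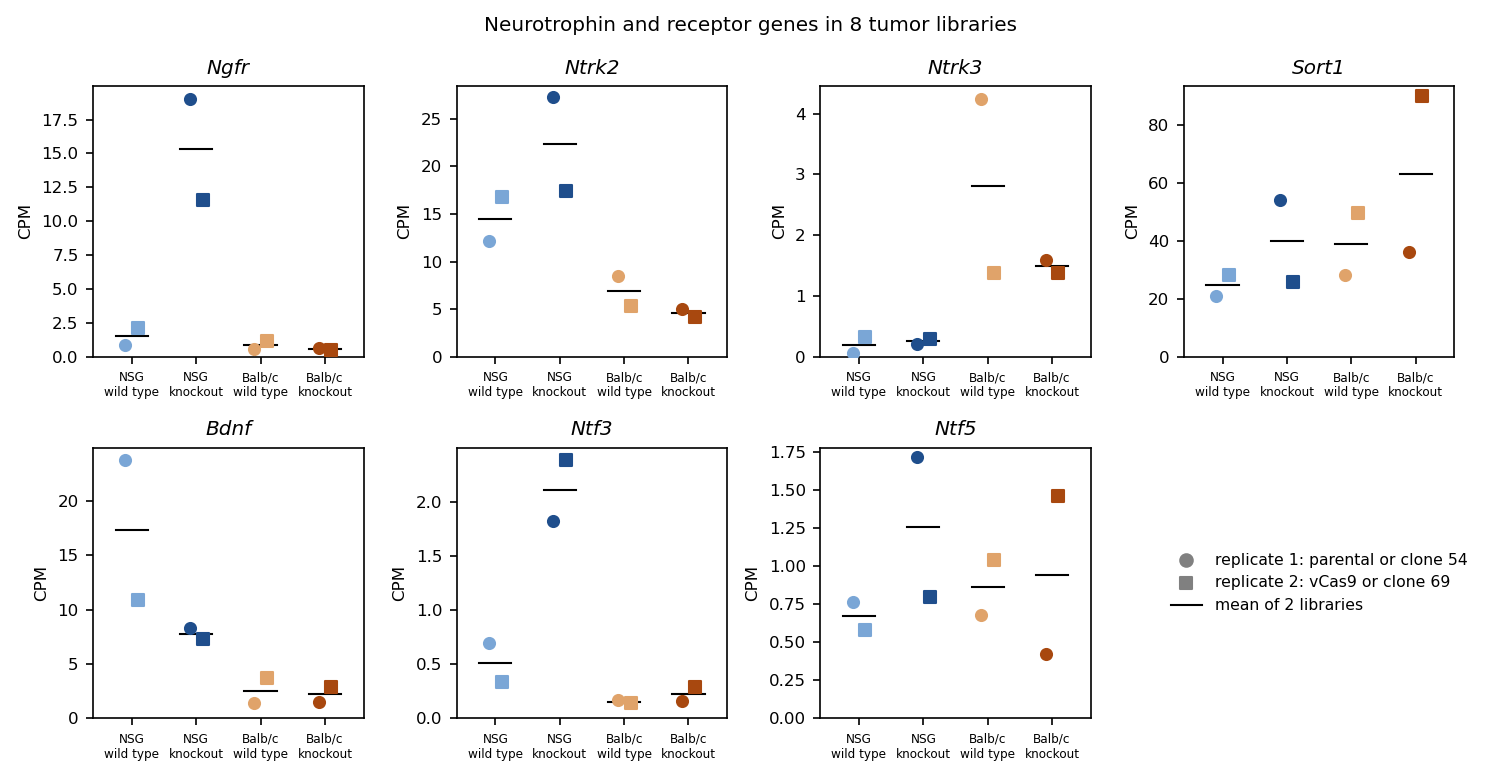
Level of each of the 7 genes in CPM (vertical axes, each starting at 0) in the 8 libraries, by host and CD95 status; circles are replicate 1 (parental line or clone 54), squares replicate 2 (vCas9 line or clone 69) and black bars the mean of 2 libraries. For Ngfr the 2 NSG knockout libraries sit at 19.0 and 11.5 CPM and the other 6 at 0.511 to 2.15 CPM, and for Ntrk3 the 4 Balb/c libraries sit above the 4 NSG libraries.

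Several marker lists of cell types moved with the NSG knockout group, and their part in the Ngfr result was not tested. The luminal epithelial and 4T1 list, with 8 of 8 genes found, summed to 2367 to 3562 CPM in NSG knockout and 1202 to 1604 in NSG wild type. Its defining markers Epcam and Cdh1 were at 288 to 416.4 and 206 to 271 CPM in NSG knockout, against 47.5 to 116 and 57.8 to 98.7 in NSG wild type. In Balb/c, however, the clone 69 tumor had the highest sum of that list of any library, 4326 CPM, and 0.511 CPM of Ngfr. The fibroblast list (9 of 9 genes) summed to 30861 to 35651 CPM in NSG knockout, 18457 to 27061 in NSG wild type, 9566 to 14103 in Balb/c wild type and 4545 to 12552 in Balb/c knockout. The skeletal muscle list (8 of 8) summed to 27.5 to 34.6 CPM in NSG knockout and 14.7 to 20.8 in NSG wild type. In Balb/c it summed to 7.13 and 45.3 CPM in wild-type and 3.81 and 39.1 CPM in knockout tumors. The summed levels of the macrophage, B cell and T cell lists were lower in both NSG knockout libraries than in both NSG wild-type libraries, at 1856 to 2365 against 3428 to 3535 CPM for macrophages (8 of 8 genes), 4.17 to 5.07 against 5.40 to 5.72 CPM for B cells (7 of 7) and 3.96 to 6.56 against 8.59 to 10.02 CPM for T cells (7 of 8).

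Lists of the cell types best known for p75 behaved differently from one another. The Schwann cell list (12 of 12 genes) summed to 179 to 288 CPM in NSG knockout and 217 to 229 in NSG wild type, so that these groups overlapped. Its defining marker Sox10 did not exceed 3.19 CPM in any library. The pericyte list (8 of 8) summed to 366 to 489 CPM in NSG knockout and overlapped with NSG wild type, at 228 to 438. The basal or myoepithelial list (8 of 8) overlapped too, at 169 to 189 against 91.6 to 196 CPM. Its defining marker Krt14 was at 81.4 and 40.8 CPM in the NSG knockouts against 16.3 and 35.0 in the NSG wild types. Krt5, the other defining marker, was at 1.71 and 1.99 CPM in the NSG knockouts against 1.04 and 0.994 in the NSG wild types. Unlike Krt14, Krt5 peaked in Balb/c wild type, at 4.502 CPM. For follicular dendritic cells (7 of 7) the sum was 520 to 1129 CPM in NSG knockout and 176 to 474 in the other 6 libraries. The defining markers of that list, Cr2 and Fcer2a, were at most 1.19 and 0.696 CPM in NSG knockout tumors, and peaked in Balb/c wild type at 31.4 and 14.4 CPM. Of the 8 adipocyte genes, 5 had both NSG knockout libraries above the other 6, as Ngfr did: Adipoq, Plin1, Cfd, Lep and Cidec. The defining markers Adipoq and Plin1 were at 11.7 and 10.1 and at 2.25 and 2.78 CPM in NSG knockout, against at most 4.80 and 0.828 CPM in the other 6. The summed adipocyte list, in which Fabp4 alone held 87.4 to 151 CPM in NSG tumors, overlapped at 146 to 179 CPM in NSG knockout and 122 to 181 in NSG wild type. Of the fibroblast genes, 8 of 9 had both NSG knockout libraries above the other 6, of the pericyte genes 3 of 8, and of the Schwann cell genes 0 of 12. So had 2 of 7 follicular dendritic cell, 2 of 8 basal or myoepithelial and 2 of 10 neuron genes. The share over all genes was 11.8%. Among neuronal markers, Rbfox3 had at most 3 counts in any library and 0 in 2, and the neuron list (10 of 10) summed to 2.89 to 8.56 CPM over all 8 libraries.

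**Figure D2:**
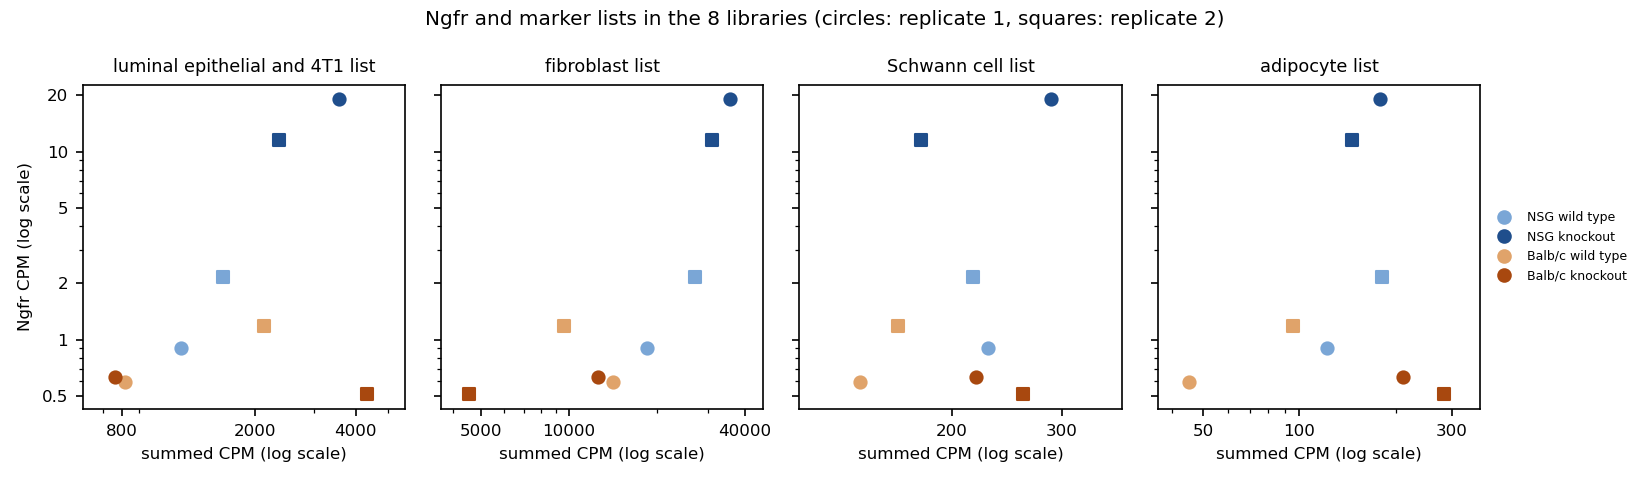
Ngfr in CPM (vertical axis, log scale) against the summed CPM of 4 marker lists (horizontal axes, log scale) in the 8 libraries, colored by group, with circles for replicate 1 and squares for replicate 2. The 2 NSG knockout libraries are highest for Ngfr and for the fibroblast list. The Balb/c knockout library with the highest luminal sum, 4326 CPM, has 0.511 CPM of Ngfr. Its Epcam, a defining marker of that list, is 228 CPM, against 416 and 288 CPM in the NSG knockout libraries.

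Ntrk2, which encodes TrkB, the receptor of BDNF and NT-4 (ENSMUSG00000055254; chromosome 13, 58806569 to 59133970, plus strand), was higher in every NSG library than in any Balb/c library. It stood at 12.1 and 16.7 CPM in the NSG parental and vCas9 tumors and at 27.3 and 17.4 CPM in the NSG clone 54 and clone 69 tumors. The Balb/c tumors had 8.49 and 5.34 CPM in the parental and vCas9 lines and 5.03 and 4.16 CPM in clones 54 and 69. The groups did not overlap in any of the 4 comparisons, but the gap between the NSG groups was narrow, 17.4 against 16.7 CPM. The host log2 fold change was -1.06 (SE 0.34) in wild-type and -2.28 (SE 0.35) in knockout tumors. Knockout minus wild type was 0.63 (SE 0.33) in NSG and -0.58 (SE 0.34) in Balb/c, opposite in sign, with a difference of -1.21 (SE 0.47). The NSG value was 0.27 without clone 54, the Balb/c value was -0.27 without the parental tumor, and the difference was -0.85 without NSG clone 54. Over both hosts the knockout value was 0.05 (SE 0.32), and -0.005 when the libraries were scaled with DESeq2-type size factors (RLE).

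Ntrk3, which encodes TrkC, the main receptor of NT-3 (ENSMUSG00000059146; chromosome 7, 78175959 to 78738012, minus strand), ran the other way. The NSG tumors had 1, 4, 2 and 3 counts in the parental, vCas9, clone 54 and clone 69 lines, at most 0.331 CPM. The Balb/c tumors of the same lines had 50, 20, 30 and 19 counts, or 4.25, 1.39, 1.59 and 1.39 CPM. All 4 Balb/c libraries were above all 4 NSG libraries. The fitted host log2 fold change was 3.80 (SE 0.82) in wild-type and 2.49 (SE 0.84) in knockout tumors. With single libraries left out, the wild-type value ran from 2.84 (without Balb/c parental) to 5.16 (without NSG vCas9). The pooled counts of 70 against 5 in wild type gave a ratio of 14.2, with an exact binomial interval for counting error of 5.79 to 45.0. Those in knockout tumors, 49 against 5, gave 5.83 (2.34 to 18.7). The knockout difference in Balb/c, -0.90 (SE 0.64), rested on the parental tumor and was 0.04 without it. T cell markers also separated the hosts: that list, with 7 of 8 genes found, summed to 281 to 344 CPM in Balb/c and 3.96 to 10.02 in NSG tumors. The B cell list (7 of 7) summed to 13.6 to 196 and 4.17 to 5.72 CPM, with Ms4a1, a defining marker, at 0 in 2 of the 4 NSG libraries and at most 0.0994 CPM in the other two. The part of these cells in the Ntrk3 result was not tested.

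Bdnf, the ligand of TrkB (ENSMUSG00000048482; chromosome 2, 109674700 to 109727007, plus strand), was high in NSG tumors and highest in those of the wild-type lines. It stood at 23.8 and 10.9 CPM in the NSG parental and vCas9 tumors and at 8.35 and 7.26 CPM in the NSG clone 54 and clone 69 tumors. In Balb/c it stood at 1.44 and 3.67 CPM in the parental and vCas9 tumors and at 1.48 and 2.92 CPM in the clones. Every NSG library exceeded every Balb/c library, and both NSG knockouts lay below both NSG wild types. The host log2 fold change was -2.74 (SE 0.56) in wild-type and -1.84 (SE 0.56) in knockout tumors, the former -2.07 without NSG parental and -3.50 without Balb/c vCas9. The knockout value was -1.15 (SE 0.52) in NSG, and -0.48 without the NSG parental tumor. In Balb/c the knockout value was -0.25 (SE 0.57), with overlapping libraries, and leaving out single libraries moved it between -0.82 (without the parental tumor) and 0.50 (without the vCas9 tumor). An antisense gene, Gm45346, covers 14.4% of the exon length of Bdnf, and since the strand setting of the counting is not given in the sources used here, its reads cannot be told apart from those of Bdnf. The fibroblast list and the pericyte list, at 228 to 489 CPM in NSG and 100 to 319 CPM in Balb/c tumors, also had lower sums in both Balb/c groups than in the matching NSG groups. So did the follicular dendritic cell list, at 430 to 1129 CPM in NSG and 176 to 292 CPM in Balb/c tumors, and the neuron list, at 4.85 to 8.56 and 2.89 to 6.40 CPM. In the follicular dendritic cell list, Clu held 238 to 874 CPM in NSG tumors. The defining markers ran the other way in wild-type tumors. Cr2 was 0.485 and 1.41 CPM in NSG parental and vCas9 tumors, against 31.4 and 7.83 CPM for these lines in Balb/c. Fcer2a was 0.277 and 0.580 against 14.4 and 4.44 CPM. In knockout tumors both markers overlapped between hosts. Of 6 genes tested, 2 were called higher and 3 lower in Balb/c among wild-type tumors. The part of these lists in the host differences of Bdnf, Ntrk2 and Ntf3 was not tested.

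Ntf3, which encodes NT-3 (ENSMUSG00000049107; chromosome 6, 126101412 to 126166910, minus strand), was also highest in the NSG knockout tumors, but close to the limit of these libraries. The NSG tumors had 10 and 4 counts (0.693 and 0.331 CPM) in the parental and vCas9 lines and 17 and 24 counts (1.82 and 2.39 CPM) in clones 54 and 69. The Balb/c tumors had 2 counts in each wild-type line and 3 and 4 counts in clones 54 and 69, at most 0.292 CPM. Both NSG knockouts were at least 2.63-fold above the other 6 libraries. The knockout log2 fold change in NSG was 2.0 (SE 0.57), or 2.63 without NSG parental and 1.59 without NSG vCas9, and the pooled counts of 41 against 14 gave a ratio of 4.00 with a counting interval of 2.14 to 7.95. The host log2 fold change was -3.21 (SE 0.62) in knockout tumors and -1.70 (SE 0.73) in wild-type tumors. The latter was -1.07 without NSG parental, and the counting interval of its ratio, 0.289, ran from 0.0693 to 0.920. In Balb/c, 7 knockout against 4 wild-type counts gave a ratio of 1.41 with an interval of 0.357 to 6.55, so no difference was detectable at this depth.

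Ntf5, which encodes NT-4, the other ligand of TrkB (ENSMUSG00000074121; chromosome 7, 45413695 to 45417179, plus strand), stayed between 0.423 and 1.71 CPM in the 8 libraries, the narrowest span of the 7 genes at 4.05-fold. It had 11 and 7 counts in the NSG wild types, 16 and 8 in the NSG knockouts, 8 and 15 in the Balb/c wild types and 8 and 20 in the Balb/c knockouts. The groups overlapped except for the NSG knockouts, at 1.71 and 0.796 CPM, which were both above the NSG wild types, at 0.762 and 0.580 CPM. That log2 difference, 0.88 (SE 0.73), was about as large as its error, and it was 0.24 without clone 54. The log2 knockout difference in Balb/c, 0.08 (SE 0.70), turned to -0.02 with RLE scaling and to -1.02 without clone 69.

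Sort1, which encodes sortilin, the partner of p75 for neurotrophin precursors (ENSMUSG00000068747; chromosome 3, 108284082 to 108361511, plus strand), was read at 21.1 to 90.0 CPM over the 8 libraries, with no group apart from the others. It stood at 21.1 and 28.3 CPM in the NSG parental and vCas9 tumors, 54.1 and 25.8 in NSG clones 54 and 69, 28.3 and 49.5 in the Balb/c parental and vCas9 tumors, and 36.3 and 90.0 in Balb/c clones 54 and 69. The libraries overlapped in all 4 comparisons, and the clone with more Sort1 was clone 54 in NSG and clone 69 in Balb/c. The fitted log2 fold changes were all between 0.66 and 0.69 (SE 0.50 to 0.51), and each shrank without 1 library. The host difference in wild-type tumors was 0.27 without Balb/c vCas9. Without Balb/c clone 69 the knockout difference in Balb/c was -0.10 and the host difference in knockout tumors -0.14, and without NSG clone 54 the knockout difference in NSG was 0.06. The antisense gene Gm12523 covers 4.47% of the exon length of Sort1. Of its relatives, Sorl1, a sorting receptor of the same family, rose between hosts in wild-type tumors, from 186 and 187 CPM in NSG to 744 and 626 CPM in Balb/c. The log2 difference was 1.88 (SE 0.43, edgeR adjusted p = 0.0165). This call was lost with the cell line as a block (adjusted p = 0.0597) and without NSG parental (0.101), NSG vCas9 (0.0953) or Balb/c parental (0.0728). In the knockout tumors Sorl1 was at 176 to 263 CPM in NSG and 131 to 350 CPM in Balb/c, and did not pass (log2 fold change 0.13, SE 0.42, edgeR adjusted p = 0.836). Its knockout log2 fold change in Balb/c was -1.51 (SE 0.42), which did not pass in edgeR (adjusted p = 0.0718). It passed with no filter (edgeR adjusted p = 0.0142) and in DESeq2 (adjusted p = 0.0022). Sorcs2, a sortilin relative that also binds neurotrophin precursors, fell between hosts in both backgrounds. It stood at 20.3 to 57.3 CPM in NSG and 5.69 to 10.3 CPM in Balb/c tumors, with log2 fold changes of -1.99 in wild-type (SE 0.44, edgeR adjusted p = 0.0148) and -2.79 in knockout tumors (SE 0.45, edgeR adjusted p = 0.0035). The wild-type call was lost without NSG vCas9 (adjusted p = 0.0874) or Balb/c parental (0.0994). Sorcs1 and Sorcs3 reached at most 0.899 and 0.199 CPM and did not pass the filter. Lingo1, a co-receptor of p75, was at 0.0994 to 1.39 CPM and passed no test.

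Every one of the 7 genes passed the filter on low counts, which kept 15310 genes. Among wild-type tumors, 3 of the 7 were past the all-gene threshold between hosts, Bdnf and Ntrk2 lower and Ntrk3 higher in Balb/c, where 31.5% of all genes tested were, 15.3% higher and 16.2% lower. When the line was fitted as a replicate block, 0 of the 7 were, against 13.5% of all genes. The calls were also lost without the NSG parental or the Balb/c parental tumor. Those fits keep 1 library in a group, and far fewer of all genes passed in them too. Bdnf and Ntrk3 alone remained with RLE scaling, against 30.2% of all genes. The same was so without NSG vCas9 or Balb/c vCas9, where fewer of all genes passed than in the full fit. It was also so without Balb/c clone 54, where more did. Among knockout tumors, 4 of the 7 were, Ngfr, Bdnf, Ntf3 and Ntrk2, all lower in Balb/c, where 31.1% of all genes were, 15.7% higher and 15.4% lower. Ngfr, Ntf3 and Ntrk2 remained with the block, against 18.8% of all genes. Without NSG clone 54 or NSG clone 69 the same genes remained and Bdnf did not. In those fits, which keep 1 library in a group, smaller shares of all genes passed than in the full fit. The Bdnf call was also lost without Balb/c clone 54, where its value was -1.44. There the share of all genes that passed was close to that of the full fit. For the knockout effect, 0 of the 7 were past the edgeR threshold in NSG, where 0.0131% of all genes were, and 0 in Balb/c, where 0.176% were, 0.0457% higher and 0.131% lower. At an unadjusted p under 0.05 these counts were 2 and 0, against 14% and 30.9% of all genes. With DESeq2 they were 1 (Ngfr) and 0, against 2.41% and 16% of the genes with a DESeq2 adjusted p. For the difference between hosts in the knockout effect, and for the knockout effect over both hosts, 0 of the 7 and 0 of all 15310 genes passed in edgeR. At an unadjusted p under 0.05, 2 and 1 of the 7 did, among 3452 and 2645 of all genes (22.5% and 17.3%), and DESeq2 called 1 (Ngfr) and 0 of the 7, against 7.05% and 4.76%. Since the genes were chosen on these contrasts, nothing is read from the counts.

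The libraries of the 2 groups did not overlap for 1 gene higher and 3 lower in Balb/c wild type, where 35.4% and 41.0% of all genes were so placed. For Balb/c against NSG knockout they did not overlap for 1 higher and 4 lower, against 32.4% and 31.9% of all genes. In NSG, 4 genes were higher and 1 lower in both knockout libraries, against 26.7% and 25.8%, and in Balb/c 0 were higher and 1 was lower, against 32.9% and 29.3%. Ngfr, Ntf3 and Ntrk2 had both NSG knockout libraries above the other 6, as did 11.8% of all genes. Bdnf, Ntf3 and Ntrk2 had all 4 NSG libraries above all 4 Balb/c libraries, as did 17.5% of all genes, and Ntrk3 had the reverse, as did 16.1%. The median log2 fold change of the 7 was -0.74 for the host effect in wild-type tumors and -1.84 in knockout tumors, with -0.08 and 0.02 over all genes. For the knockout effect it was 0.69 in NSG and -0.25 in Balb/c, with 0.01 and 0.06 over all genes.

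**Figure D3:**
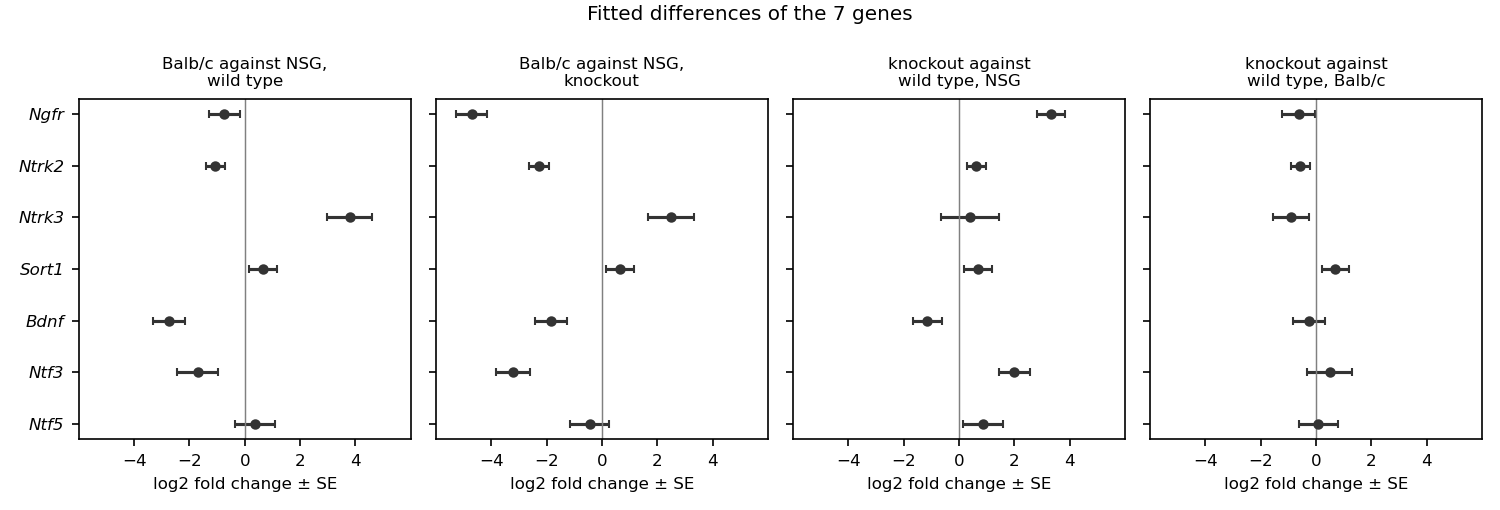
Fitted log2 fold changes (horizontal axes) of the 7 genes with standard errors (bars) in the 4 comparisons; points right of 0 are higher in Balb/c in the first 2 panels and higher in knockout tumors in the last 2. Ngfr lies at -4.70 for the host difference in knockout tumors and at 3.33 for the knockout difference in NSG, while Ntrk3 lies at 3.80 and 2.49 for the host differences.

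Levels of different genes were compared as CPM per kilobase of merged exon length, and neighbors in the order are called separated only where their means ± SD do not overlap. Sort1 was first in all 4 groups on this scale, at 3.26 ± 0.68 in NSG wild type, 5.28 ± 2.65 in NSG knockout, 5.14 ± 1.99 in Balb/c wild type and 8.34 ± 5.02 in Balb/c knockout (SD, n = 2 each). In NSG wild type, Bdnf was second at 2.79 ± 1.48 CPM per kilobase, within the spread of Sort1, and came first when the length of the longest transcript was used. Ntrk2 at 0.748 ± 0.169, Ngfr at 0.443 ± 0.257, Ntf3 at 0.299 ± 0.149 and Ntf5 at 0.253 ± 0.0485 followed, each within the spread of its neighbor except Ntrk2 against Bdnf. Ntrk3 was last at 0.0066 ± 0.0061. In NSG knockout, Ngfr was second at 4.44 ± 1.54 CPM per kilobase and overlapped with Sort1. Bdnf (1.26 ± 0.124), Ntf3 (1.23 ± 0.234) and Ntrk2 (1.16 ± 0.362) could not be ordered, and Ntf5 (0.473 ± 0.244) and Ntrk3 (0.0085 ± 0.0020) followed.

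In Balb/c wild type the distance from Sort1 to the next gene was wide. Bdnf was at 0.412 ± 0.254, Ntrk2 at 0.358 ± 0.116, Ntf5 at 0.324 ± 0.0960 and Ngfr at 0.257 ± 0.120 CPM per kilobase, with no neighbor separated beyond its spread. Ntrk3 (0.0934 ± 0.0671) and Ntf3 (0.0900 ± 0.0129) were last. In Balb/c knockout, Ntf5 (0.355 ± 0.276), Bdnf (0.354 ± 0.163) and Ntrk2 (0.238 ± 0.0318) overlapped. They were followed by Ngfr (0.166 ± 0.0255), Ntf3 (0.131 ± 0.0549) and Ntrk3 (0.0493 ± 0.0047). With the length of the longest transcript, Ntrk2 moved from place 5 to 3 in NSG knockout, from 3 to 2 in Balb/c wild type and from 4 to 2 in Balb/c knockout, and it kept place 3 in NSG wild type. Ntrk3 kept its place in all 4 groups.

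**Figure D4:**
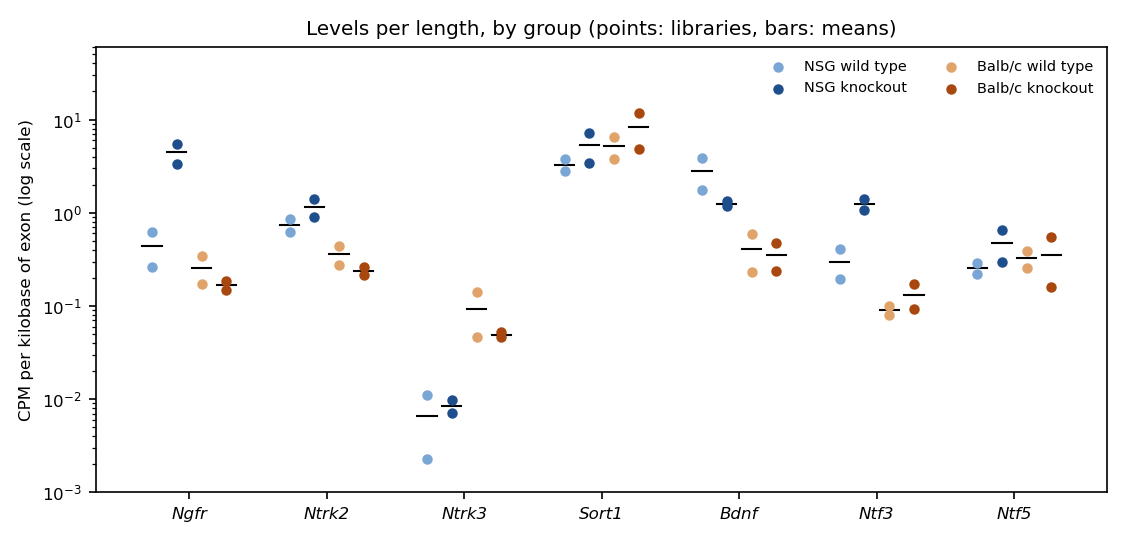
Level per length of the 7 genes, in CPM per kilobase of merged exon (vertical axis, log scale), with a point for each library and a bar for the mean of 2, by group. Ngfr moves from 0.443 in NSG wild type to 4.44 in NSG knockout, next to Sort1 at 5.28, while Ntrk3 lies lowest in both NSG groups.

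Genes whose level over the 8 libraries was most like that of Ngfr were sought among 14177 genes with a mean of at least 1 CPM, by the Pearson correlation of log2 CPM. The values are descriptions over 8 libraries that share lines and groups. The highest were Tmprss6 (r = 0.995), Tmtc1 (0.984), Gli2 (0.978), Banp (0.975) and Zfp579 (0.973). Tmprss6, a membrane serine protease gene, stood at 45.6 and 36.7 CPM in the NSG knockouts and 3.82 to 8.53 CPM in the other 6 libraries. Gli2, a transcription factor of the Hedgehog pathway, stood at 3.75 and 3.98 CPM against 1.17 to 1.74. Banp varied far less, with 25.4 and 23.9 CPM against 16.8 to 21.6, so a high correlation did not require a large difference. The lowest were Lrfn1 (r = -0.980), Calca (-0.978), Spaca9, Tex2 and Mcoln1 (-0.976 each). Calca, which encodes calcitonin and the neuropeptide CGRP, was at 0.107 and 0.298 CPM in the NSG knockouts and 0.911 to 2.04 in the other 6. Both NSG knockout values lay at or below the level of 3 counts in those libraries, 0.321 and 0.298 CPM. Among the other neurotrophin genes with a mean of at least 1 CPM, r with Ngfr was 0.838 for Ntrk2, 0.438 for Bdnf, -0.063 for Sort1 and -0.589 for Ntrk3.

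The rest of the pathway was followed in 7 lists of 87 further genes, of which 77 could be tested. Between hosts, 14 of the 77 rose and 7 fell in Balb/c wild-type tumors, 21 in all, against 31.5% of all genes tested (15.3% higher, 16.2% lower). With total-count scaling 20 passed, 9 of them higher, against 34.1% of all genes, and with RLE 25 passed, 19 of them higher, against 30.2%. With the cell line as a block 8 passed, against 13.5% of all genes. Without NSG parental 2 did, without NSG vCas9 5, without Balb/c parental 7 and without Balb/c vCas9 8, against 5.32%, 8.35%, 8.84% and 9.92% of all genes. In knockout tumors 18 rose and 14 fell, against 31.1% of all genes (15.7% higher, 15.4% lower), and with total-count scaling 29 passed, 12 of them higher, against 30.7%; 21 passed with the block and 19 without NSG clone 69, against 18.8% and 16.2%. The median log2 fold change of the 77 was 0.03 and 0.13, with -0.08 and 0.02 over all genes. For the knockout effect in NSG, in Balb/c, their difference and the effect over both hosts, 0 of the 77 passed in edgeR. The shares of all genes were 0.0131%, 0.176%, 0 and 0. At an unadjusted p under 0.05 the counts were 15, 23, 19 and 16, against 14%, 30.9%, 22.5% and 17.3% of all genes. DESeq2 called 2, 16, 6 and 8, against 2.41%, 16%, 7.05% and 4.76% of the genes with an adjusted p. Without Balb/c clone 69, edgeR called 18 in Balb/c and 9 for the difference, against 25.6% and 15.5% of all genes.

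Genes that neurotrophins induce in neurons were also followed; most of them are immediate-early genes that many other signals induce too. In knockout tumors 7 of 10 tested rose and 2 fell in Balb/c, where 15.7% of all genes rose and 15.4% fell. In wild-type tumors 4 rose and 1 fell, where 15.3% of all genes rose and 16.2% fell. Immune cell markers differed between the same groups. The macrophage list summed to 4665 to 11775 CPM in Balb/c and 1856 to 2365 in NSG knockout tumors. There 8 of 8 of its genes were called higher in Balb/c. In wild-type tumors its sum was lower in Balb/c, at 2439 to 2703 against 3428 to 3535 CPM. The 7 T cell genes found were all called higher in Balb/c in both backgrounds. The part of these cells in the induced genes was not tested. Fos rose in both backgrounds, from 451 to 994 CPM in NSG to 941 to 2149 in Balb/c. Its log2 fold change was 1.17 in wild-type (SE 0.29, edgeR adjusted p = 0.0213) and 1.41 in knockout tumors (SE 0.29, adjusted p = 0.0095). Egr1 rose by 2.15 (SE 0.38, edgeR adjusted p = 0.0073) and 1.25 (SE 0.37, adjusted p = 0.0364). Egr2 rose by 1.80 in knockout tumors (SE 0.21, edgeR adjusted p = 0.0010) and by 0.61 in wild-type tumors (SE 0.20, adjusted p = 0.0497). The wild-type Egr2 call was lost with the block (0.0672), with total-count scaling (0.110) and without any library but the 2 Balb/c knockouts (0.0609 to 0.232). Arc rose by 2.07 in knockout tumors (SE 0.50, edgeR adjusted p = 0.0175) and did not pass in wild-type tumors (log2 fold change 0.65, adjusted p = 0.321). With the cell line as a block, the Egr2 and Fos calls in knockout tumors held, as did Egr1 in wild-type tumors. The block raised the edgeR adjusted p to 0.0643 for Fos in wild-type tumors, 0.128 for Egr1 in knockout tumors and 0.0551 for Arc. Leaving out any of the 4 wild-type tumors lost the wild-type Fos call (adjusted p 0.0650 to 0.132), and leaving out either NSG wild-type tumor lost that of Egr1 (0.0619 and 0.0637). In knockout tumors the Egr1 call was lost without any library except NSG clone 54 and Balb/c clone 54 (0.0601 to 0.184), and the Arc call without NSG clone 54, NSG clone 69 or Balb/c clone 69 (0.0537 to 0.111).

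Enzymes that process neurotrophin precursors moved in both directions. Furin, the convertase that cuts precursors inside the cell, was at 221 to 302 CPM in NSG tumors and rose in both backgrounds in Balb/c, to 765 and 886 CPM in wild-type and 434 and 602 CPM in knockout tumors. Its log2 fold changes were 1.53 (SE 0.22, edgeR adjusted p = 0.0040) and 1.20 (SE 0.22, adjusted p = 0.0057), and the first was at an adjusted p of 0.0514 without NSG parental. Mmp3, a secreted metalloproteinase, fell from 209.6 to 250.3 CPM in NSG tumors to 52.6 and 74.2 CPM in Balb/c wild-type and 27.7 and 14.4 CPM in Balb/c knockout tumors. Its log2 fold changes were -1.79 (SE 0.31, edgeR adjusted p = 0.0066) and -3.53 (SE 0.33, adjusted p = 5.09e-04). The wild-type call was lost without NSG parental (0.0518) or Balb/c vCas9 (0.0597). Pcsk6, another convertase, fell in knockout tumors by 2.33 (SE 0.44, edgeR adjusted p = 0.0064), while its log2 fold change in wild-type tumors was 0.03 (adjusted p = 0.968). Plat, the tissue plasminogen activator, fell in both backgrounds, from 170 to 224 CPM in NSG tumors to 132 and 84.1 CPM in Balb/c wild-type and 51.8 and 36.5 CPM in Balb/c knockout tumors. In knockout tumors it fell by 2.19 (SE 0.28, edgeR adjusted p = 0.0015), a call that held with the block and with each library left out. In wild-type tumors it fell by 0.87 (SE 0.27, edgeR adjusted p = 0.0436), which did not hold with the block (0.101), with RLE scaling (0.0652) or without 6 of the 8 libraries (0.0610 to 0.300), the exceptions being the 2 Balb/c knockouts. In all, 2 of 8 tested genes of this list rose and 2 fell in wild-type tumors, and 1 rose and 5 fell in knockout tumors. Over all genes 15.3% rose and 16.2% fell in the former and 15.7% and 15.4% in the latter. Of the fibroblast and pericyte markers, 7 of 9 and 4 of 8 were called lower in Balb/c knockout tumors. In wild-type tumors 0 of 9 and 5 of 8 were. Their part in the changes of these enzymes was not tested.

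The enzymes that cleave p75 itself, the sheddases and the gamma-secretase subunits, had 2 of 8 higher and 0 lower in wild-type tumors, and 4 of 8 higher and 0 lower in knockout tumors. Over all genes 15.3% were higher and 16.2% lower in wild-type tumors and 15.7% and 15.4% in knockout tumors, the shares against which this and the next 3 lists stand, and the direction of the lists was not tested. Adam17, the sheddase of p75, was at 140 to 209 CPM in NSG and 237 to 295 CPM in Balb/c tumors, and rose in knockout tumors by 0.87 (SE 0.18, edgeR adjusted p = 0.0104; 0.0644 without NSG clone 69). Its log2 fold change in wild-type tumors was 0.41 (adjusted p = 0.117). Its exons overlap those of Iah1 on the opposite strand over 4.35% of their length. Of the intracellular partners of p75, 1 of 13 rose and 1 fell in wild-type tumors, and 2 rose and 2 fell in knockout tumors, near or below the shares over all genes. Maged1, which binds p75 and is linked to cell death, fell in both backgrounds, from 278 to 464 CPM in NSG to 104 to 111 CPM in Balb/c tumors. It fell by 1.95 in wild-type (SE 0.19, edgeR adjusted p = 0.0011) and by 1.42 in knockout tumors (SE 0.19, adjusted p = 0.0017), and both calls held with the block and with each library left out. Ripk2, a kinase that binds the death domain of p75 and also serves innate immune receptors, rose in knockout tumors by 1.44 (SE 0.24, edgeR adjusted p = 0.0039), with 0.23 (adjusted p = 0.454) in wild-type tumors. Among the sortilin relatives and co-receptors, 1 of 7 rose and 1 fell in wild-type tumors, and 2 fell in knockout tumors. These were Sorcs2 and the co-receptor Tnfrsf19, a relative of p75, and the latter fell by 2.52 (SE 0.48, edgeR adjusted p = 0.0069), with -0.74 (adjusted p = 0.228) in wild-type tumors. Among 30 adaptors and effectors of Trk receptors, 4 rose and 2 fell in each background, which is no larger a share in either direction than over all genes. In wild-type tumors the kinase gene Braf rose by 1.59 (SE 0.25, edgeR adjusted p = 0.0051), a call lost without NSG parental, where the value was 1.55. In knockout tumors its value was 0.74 (edgeR adjusted p = 0.0537). The adjusted p there was 0.0496 with RLE scaling, 0.0325 with no filter, 0.0271 with DESeq2 and 0.126 with the block. The adaptor gene Shc4 fell by 2.28 in wild-type tumors (SE 0.63, edgeR adjusted p = 0.0296), at 0.347 to 3.31 CPM in those libraries, and by 1.90 in knockout tumors (SE 0.59, adjusted p = 0.0432). The knockout call was lost with the block (0.131) and without 5 of the 8 libraries (0.0507 to 0.259). The wild-type call was lost with the block (0.0850) and without any of the 4 wild-type tumors (0.0623 to 0.176).

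**Figure D5:**
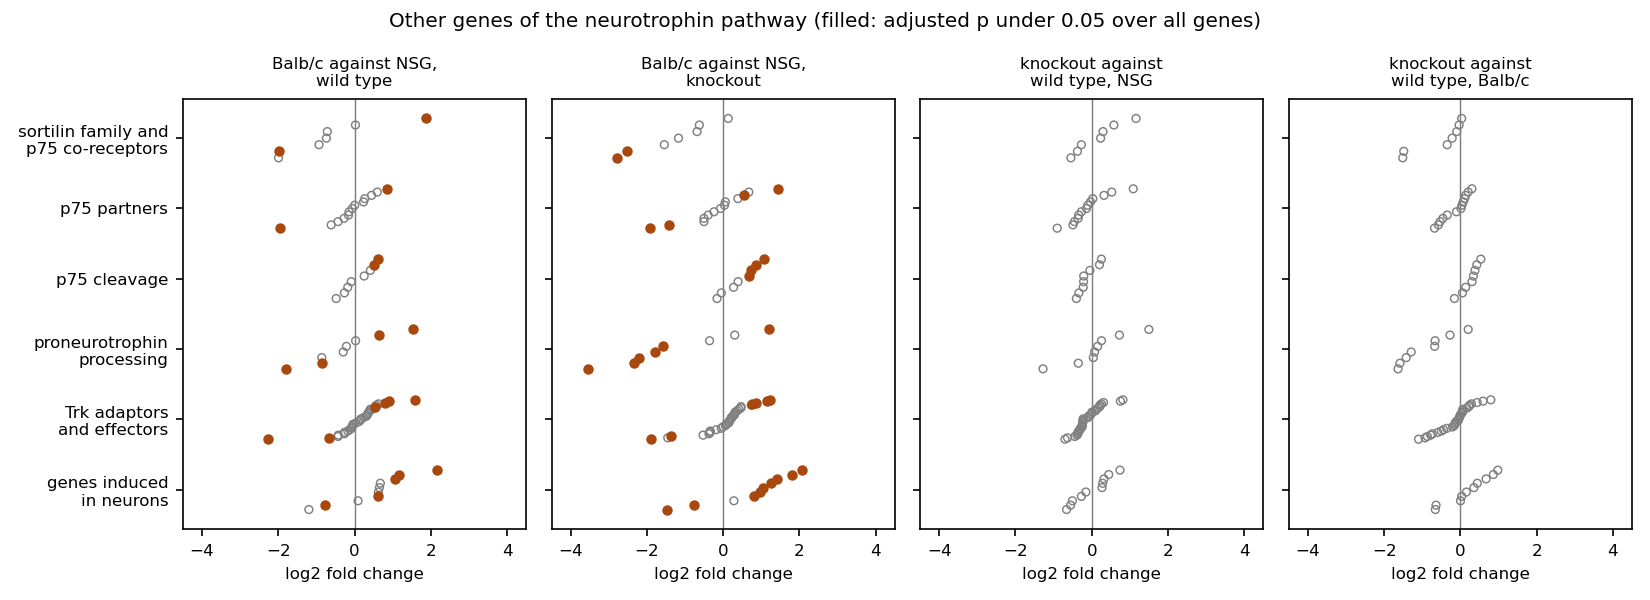
Log2 fold changes (horizontal axes) of tested pathway genes outside the 7, for 6 of the 7 lists (vertical axis), in the 4 comparisons; filled points had an edgeR adjusted p-value under 0.05 over all 15310 genes and open points did not. Filled points appear in both host comparisons and in neither of the 2 knockout comparisons.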

How the data were processed

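The authors deposited raw counts for each Ensembl gene, with 1 library in each file. Per the submitters' processing notes, cutadapt 1.13, STAR, HTSeq 0.6.1p1, DESeq2 and the builds mm10 and hg19 were used, with no role or order given. Counts were analysed with edgeR 4.0.16 in R 4.3.3 (TMM, filterByExpr, glmQLFit, glmQLFTest). All 8 libraries entered 1 model of 4 group means, with an additive host term for the knockout effect over both hosts. P-values were adjusted over all 15310 genes kept (Benjamini-Hochberg, threshold 0.05). CPM used TMM-scaled totals. Positions and exon lengths came from GENCODE on GRCm38. The procedure was tested on simulated counts. Intervals and floors cover counting error only.

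The 7 genes, the pathway and marker lists and the tests were chosen with earlier results of these data known. Named besides the 7 were Fas, the 5 genes most and least like Ngfr, genes sharing a role with the 7, up to 5 pathway genes per direction and comparison by log2 fold change among those past the threshold (given in both host comparisons), and defining markers. Some items of these lists are not reported here. Replicate 1 was the parental line or clone 54, and replicate 2 the vCas9 line or clone 69. Each line was grown in both hosts, per the titles, which pairs libraries across hosts. Deviations of a line from its group means correlated between hosts with r = 0.09 for wild-type and -0.35 for knockout lines (15310 genes). Nothing says that replicates came from separate cultures, so p-values measure the spread between these libraries. Alternatives were RLE and total-count scaling, no filter, DESeq2 1.42.0, the line as a block, and each library left out.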

Additional observations from a re-analysis of the deposited data

Results flagged for a closer look

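The fitted knockout changes of Ntrk2 had opposite signs in the 2 hosts, and neither was past the edgeR threshold. Both knockout libraries were above both wild-type libraries in NSG (27.3 and 17.4 against 12.1 and 16.7 CPM) and below both in Balb/c (5.03 and 4.16 against 8.49 and 5.34 CPM). The knockout log2 fold change in Balb/c minus that in NSG was -1.21 (SE 0.47), and -0.85 without NSG clone 54. Without that library the NSG change was 0.27, and without Balb/c parental the Balb/c change was -0.27. Ntrk2 is among the genes chosen with these values in view, so the difference was given no test of its own. Over all 15310 genes, 0 passed the edgeR test of this difference, and 3452 had an unadjusted p under 0.05. Of all genes, 26.7% had both knockout libraries above both wild-type libraries in NSG, and 29.3% had both below in Balb/c. The share of genes with both placements was not counted.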

How the results depend on the processing

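With 2 libraries a group and 8680070 to 19655945 counts a library, precision was lowest for Ntf3 in Balb/c and Ntrk3 in NSG tumors, which rest on 1 to 4 counts a library. The log2 fold changes of the 7 genes kept within their spread under RLE, total-count scaling, no filter, DESeq2 and both blocks. Of 336 values with a library left out, 296 did and 38 moved by more. The sign changed in 19, over 10 of 42 differences; in 2 of them the full value exceeded the spread within groups: for the knockout in Balb/c, Ntrk3 ran from -1.59 to 0.044 and Sort1 from -0.10 to 1.10. Of 786 tested values of named pathway and role genes, 708 kept their side of the threshold, 59 lost and 19 gained a call, and 0 reversed.

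The line as a replicate block, the paired fit across hosts, gave 2073 genes for the host effect in wild-type tumors (4825 without it), 8 pathway genes (21) and 0 of the 7 (3), and in knockout tumors 2878 genes (4757) and 21 pathway genes (32). The crossed pairing, added after seeing the data, gave 307 genes, 1 pathway gene and 1 of the 7 for the difference between hosts (0 each), and 5436 genes for the host effect in knockout tumors.

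In the host comparisons, total-count scaling shifted the all-gene median log2 value from -0.08 to -0.24 (wild type) and from 0.02 to -0.17 (knockout), and the share of calls that were higher from 48.6% to 36.5% and from 50.5% to 37.3%; RLE gave 57.9% in wild-type tumors. For the knockout effect in NSG, no filter gave 133 genes and 1 of the 7, and DESeq2 340 genes, 2 pathway genes and 1 of the 7 (2, 0 and 0). In Balb/c, RLE gave 94 genes, no filter 1774 and 11 pathway genes, and DESeq2 2208 and 16 (27 and 0). For their difference, no filter gave 674 genes, 3 pathway genes and 1 of the 7, and DESeq2 974, 6 and 1 (0 each). Over both hosts, no filter gave 14 genes, and DESeq2 700 genes and 8 pathway genes (0 each). The cause was not tested.

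With each library left out in turn, gene counts ran from 815 to 6333 (host, wild type), 2474 to 4672 (host, knockout), 0 to 1 (knockout, NSG), 0 to 3917 (knockout, Balb/c), 0 to 2372 (difference) and 0 to 2 (both hosts). The 3917 and 2372 came without Balb/c clone 69. Pathway counts ran from 2 to 29, 19 to 26, 0 to 18 (Balb/c) and 0 to 9 (difference), and counts of the 7 from 0 to 3 (host, wild type) and 0 to 1 (difference).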
